A study of Caenorhabditis elegans with 4 samples.

Results

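Closely spaced NFYA-1 peaks are the narrow binding intervals that lie beside another interval in late embryos of Caenorhabditis elegans. They were chosen from the combined peak list by position and width. A member was under 1000 bp wide, and fewer than 1000 bp separated it from the nearest neighbouring interval of any width on its chromosome. This rule found 929 of the 5320 combined peaks, or 18.1% of the 5120 narrow ones (exact 95% interval 17.1 to 19.2). The 929 members covered 401 kb, another 4191 narrow peaks had no such neighbour, and 200 peaks were at least 1000 bp wide.

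The data come from chromatin immunoprecipitation and sequencing (ChIP-seq) with 2 ChIP and 2 input libraries. Every library came from late embryos of hermaphrodite strain OP404, grown at 20 °C and fixed with 2% formaldehyde, so all groups share 1 genotype. It combines the mutation unc-119(ed3) on chromosome III with the transgene wgIs404, made by bombardment. The transgene carries both the rescuing unc-119(+) copy and the tagged factor, nfya-1::TY1-GFP-3xFLA. The labels list no change to the endogenous nfya-1 gene, and anti-GFP antibodies collect the tagged protein alone. Whole embryos were used, so sites in different tissues cannot be told apart. The input values are not used here, and the sequencing depth is unknown.

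NFYA-1 is the A subunit of NF-Y, a complex with histone-fold B and C subunits in which the A subunit makes the contact with CCAAT boxes. In C. elegans NF-Y is known as a repressor of the Hox gene egl-5 and of the T-box gene tbx-2. Mammalian NF-Y is known for promoters that carry several CCAAT boxes in a row. Positions below are in WormBase build WS180. No genome of that build was used here, so no gene or sequence was assigned to a peak.

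Each deposited peak carries a single value, the authors' q-value. Peak strength is given as −log10 q, so a larger value is a stronger peak. Depth and enrichment both enter it, so it serves to rank peaks within a list. The combined list draws on the replicates by its name, and finding its peaks in them again is no independent evidence. Positions, widths and strengths of the combined list are therefore a description, and no p-value is given. Ranges after shares are 95% intervals by the exact Clopper-Pearson method, for the counting error of peaks or pairs alone. With 2 ChIP libraries, whose separate origin the labels do not state, the spread between libraries is not measured.

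Most members stood in runs of 2 members. Joined by gaps under 1000 bp, the members formed 442 runs, which also held 70 wide peaks and so 999 peaks in all. Of these runs, 349 were made of 2 peaks, 74 of 3, 16 of 4 and 3 of 5. Counted by members alone, 324 runs held 2 members, 61 held 3, 11 held 4 and 2 held 5. A further 44 runs had 1 member beside wide peaks. A close neighbour on each side was found for 99 members, and the other 830 had one on a single side. The median run was 1616.5 bp long (quartiles 1251 and 2193), and the range was 435 to 5729 bp.

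A run of 3 members on chromosome III, from 12155558 to 12157834, shows neighbouring intervals that every list kept apart. In the combined list its members had strengths of 66.7, 59.4 and 33.2 from left to right, across gaps of 274 and 409 bp. Replicate 1 gave 31.1, 26.4 and 16.01, and replicate 2 gave 35.5, 29.5 and 13.4. The order from left to right was the same in all 3 lists, and each replicate list held 3 separate intervals there.

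Another run of 3 members on III ran from 1923360 to 1926918. Its combined strengths were 36.3, 61.0 and 31.4, with 22.7, 36.5 and 12.6 in replicate 1 and 20.4, 30.6 and 16.3 in replicate 2. The middle peak was the strongest and the right one the weakest in every list. The run on III from 12696579 to 12698918 also had a strong middle, with 10.8, 29.96 and 7.63 in the combined list. Its replicate 1 values were 6.09, 16.5 and 3.81, and its replicate 2 values were 6.90, 24.9 and 3.86. On IV, from 13876722 to 13879050, the left peak led in every list, at 37.7 in the combined list, 16.5 in replicate 1 and 18.8 in replicate 2.

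Of the 93 runs with at least 3 peaks, 7 had every peak in both replicates. These 7 were chosen for that after their values were seen. All 7 were split at the same gaps in both replicates, and 5 of them lay on III. Of all 442 runs, 113 lay on III. As 349 of the 442 held 2 peaks, this is not the share among the 93. Among all 550 close pairs, a shared interval was found for 2 in replicate 1 and 3 in replicate 2. The split thus follows largely from the choice. The other 3 of the 7 runs held wide peaks beside their members. They were III from 12612286 to 12617201 with 1 member, III from 13462805 to 13466474 with 2, and X from 16928097 to 16931948 with 2. On X the wide middle peak had a strength of 97.1, between members of 8.81 and 23.8. Replicate 1 gave 53.8 for that middle peak and replicate 2 gave 35.7.

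**Figure D1:**
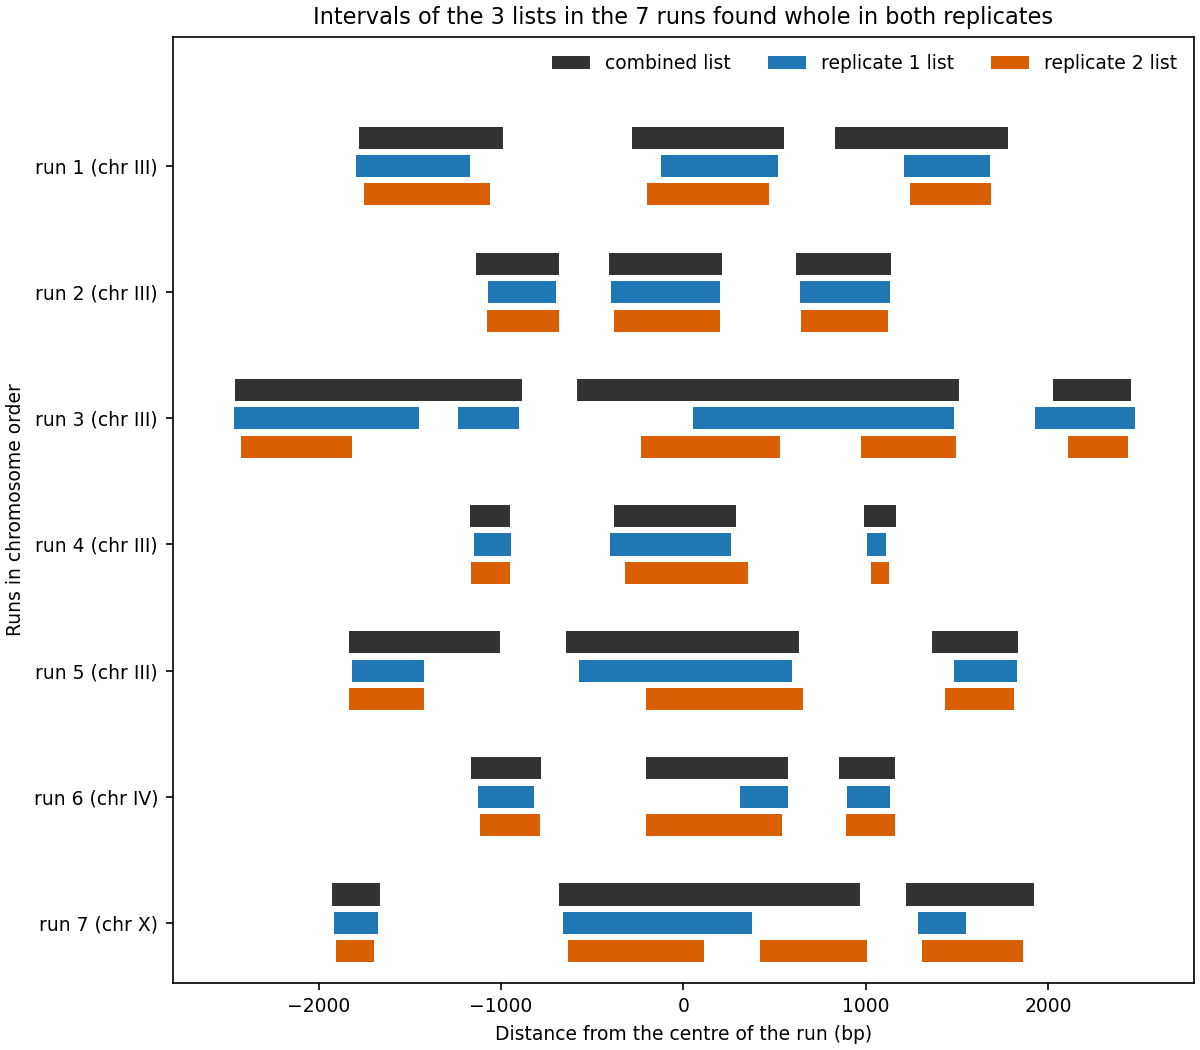
Intervals of the combined list (black), replicate 1 (blue) and replicate 2 (orange) in the 7 runs whose every peak was found in both replicates; the x axis is the distance from the centre of the run in bp, and runs are stacked in chromosome order. The gaps between the 3 combined intervals of each run are also open in both replicates, and in runs 3 and 7 a replicate list splits a wide combined interval further.

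Several peaks of the largest runs were in no replicate list. Among the 2 runs of 5 members, the one on V from 4963069 to 4968492 had combined strengths of 4.34, 16.5, 8.25, 3.66 and 5.16. The second of them was found in both replicates, at 7.33 and 9.61, and the third in replicate 1 alone, at 5.19. No replicate peak overlapped the other 3. On II, from 9258001 to 9263321, the other run of 5 members had strengths of 13.0, 8.23, 3.57, 7.16 and 5.91. All but the middle one were found in both replicates, with values of 3.81 to 6.40 in replicate 1 and 3.95 to 5.77 in replicate 2. The highest combined strength in either run was 16.5.

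Among runs of 4 members, the one on III from 8794152 to 8797688 had the highest summed strength. From left to right its combined values were 3.57, 21.4, 65.2 and 14.5. The leftmost member was in neither replicate, while the others had 12.6, 36.8 and 6.31 in replicate 1 and 11.2, 36.4 and 9.12 in replicate 2. A run on I from 13369039 to 13373492 was led by its rightmost member, at 70.1 in the combined list, 35.01 in replicate 1 and 31.7 in replicate 2. On III from 12058327 to 12060294, 4 members fitted into 1968 bp, with strengths of 16.6, 6.21, 32.5 and 4.48. The first and the third were found in both replicates, the second in replicate 2 alone and the fourth in neither.

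In the 74 runs of 3 peaks the strongest was the middle one in 25, or 33.8% (23.2 to 45.7), where the middle is 1 of 3 positions. Of all 442 runs, 97 had every peak in both replicates (21.9%, 18.2 to 26.1), and 51 had no peak in either.

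In the combined list gaps became fewer with length, though not at every step, and none was under 200 bp. The combined list held 550 neighbouring pairs with at least 1 member, and another 15 close pairs joined wide peaks only. The median gap of the 550 was 536.5 bp (order-statistic 95% interval 505 to 578, quartiles 349 and 751). Counts of the 550 pairs per 100 bp of gap were 92 from 200 to 299 bp and 81 in the next class. They were 56 from 600 to 699 bp and 68 from 700 to 799 bp. From 800 to 899 bp there were 54, and from 900 to 999 bp 55. The midpoints of paired peaks were a median of 1060 bp apart (quartiles 814 and 1272).

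The replicate lists had a like median gap but fewer close pairs. With the same rule, replicate 1 held 318 members among 2812 narrow peaks (11.3%, 10.2 to 12.5), in 182 pairs with a median gap of 549 bp. Replicate 2 held 388 among 3249 (11.9%, 10.8 to 13.1), in 216 pairs with a median of 565.5 bp. In 200 bp classes from 200 to 999 bp, with pairs of any width, replicate 1 had 57, 46, 41 and 39 gaps. Replicate 2 had 58, 60, 47 and 53, with no steady fall. No gap was shorter than 201 bp in replicate 1, or than 200 bp in either other list. Both replicate shares lay below the combined 18.1%, and both lists hold fewer peaks. The median gap over all neighbours was 9319 bp in the combined list, 18642 bp in replicate 1 and 16047 bp in replicate 2.

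**Figure D2:**
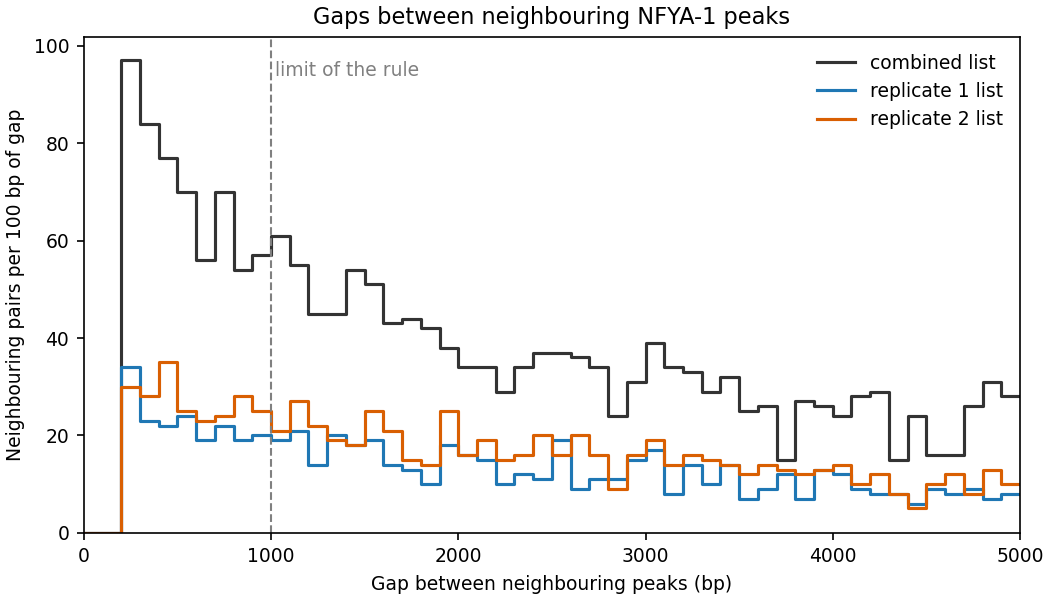
Number of neighbouring peak pairs per 100 bp of gap, for gaps up to 5000 bp, in the combined list (black), replicate 1 (blue) and replicate 2 (orange); pairs of any width are counted and the dashed line marks 1000 bp. No list has a gap under 200 bp, and the combined curve falls from 181 pairs at 200 to 399 bp to 111 at 800 to 999 bp and 116 at 1000 to 1199 bp, with no step at the limit of the rule.

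At the gap limit, the 40 narrow peaks whose nearest gap was 950 to 999 bp had a median strength of 8.70, and 16 of them were in both replicates. The 49 just outside, at 1000 to 1049 bp, had 7.28 and 22. At the width limit, 23 members of 900 to 999 bp had a median strength of 27.5, and 17 close peaks of 1000 to 1099 bp had 20.7.

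The sides of a pair were ordered by their combined strength. Over the 550 pairs, the stronger side had a median strength of 14.9 (quartiles 8.11 and 30.2) and the weaker side 5.33 (4.18 and 8.57). Ordering by itself sets the sides apart, and all combined peaks together had a median of 8.15 (quartiles 5.02 and 15.5). In 478 pairs both sides were members, and in 72 one side was wide. The stronger side was also the wider in 425 pairs (77.3%, 73.5 to 80.7), with median widths of 491 and 346 bp. Width went with strength outside close pairs too, so ordering by strength in part orders width. Among other narrow peaks, those in both replicates had a median strength of 15.6 and width of 399 bp, against 4.51 and 280 bp in neither. The stronger side of a pair lay on the left in 270 pairs and on the right in 280.

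The strongest members show how uneven a pair can be. They were chosen for their own strength, so a weaker neighbour follows largely from the choice. On IV from 11118865 to 11119548 a member of 684 bp had a combined strength of 163, with 128 in replicate 1 and 117 in replicate 2. Its neighbour 483 bp to the right had 6.20 in the combined list and 4.39 in replicate 1, and it was not in the replicate 2 list. The second strongest member, on III from 4281891 to 4282686, had 147 in the combined list, 93.7 in replicate 1 and 66.8 in replicate 2. It was flanked on the left by a peak of 14.5, found in both replicates, and on the right by one of 5.86, found in neither. The same unevenness is seen on IV from 2388866 to 2389413, with 89.3 beside 4.89, and on II from 13446385 to 13446887, with 84.5 beside 18.98. On I from 536563 to 537207 a member of 101 had a neighbour of 30.6.

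Among the 478 pairs without a wide side, 4 of the 5 with the strongest weaker side lay on III. Of all 550 close pairs, which include the 72 with a wide side, 140 lay on III. First by weaker side was the left pair of the III run from 12155558, named above. Next came III from 11488856 to 11490968, with sides of 58.5 and 74.1 across 308 bp. Replicate 1 gave 25.4 and 41.4, and replicate 2 gave 25.6 and 43.1, so the right side was the stronger in each list. On II from 12721863 to 12723230 the sides were 50.7 and 79.3 across 201 bp, beside a shortest gap of 200 bp in the list. Replicate 1 gave 24.98 and 43.7 there, and replicate 2 gave 27.99 and 40.4, again with the right side ahead. On III from 3417352 to 3419274 the sides were 37.7 and 47.2 across 748 bp. The fifth was the left pair of the III run from 1923360.

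**Figure D3:**
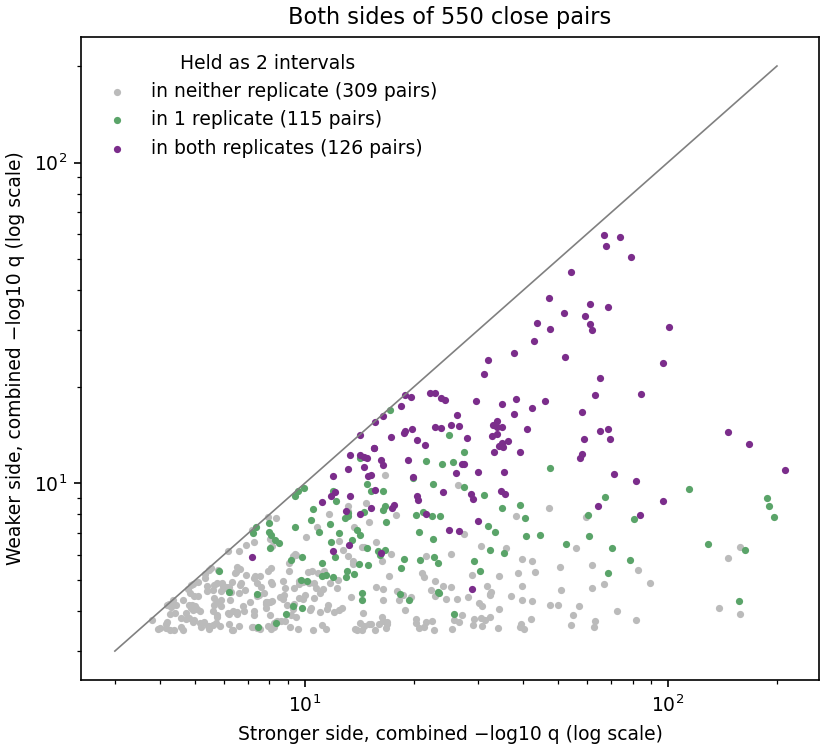
Combined −log10 q of the weaker side (y axis, log scale) against that of the stronger side (x axis, log scale) for each of the 550 close pairs; the grey line marks equal strength. Purple marks 126 pairs held as 2 separate intervals by both replicates, green 115 by 1 replicate and grey 309 by neither, and most grey points lie low on the y axis whatever the strength of the other side.

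Close pairs were seldom merged in the replicates, but their weaker side was often not listed there. Replicate 1 held 173 of the 550 pairs as 2 separate intervals (31.5%, 27.6 to 35.5) and replicate 2 held 194 (35.3%, 31.3 to 39.4). Both replicates did so for 126 pairs (22.9%, 19.5 to 26.7). An interval that touched both sides of a pair was found for 2 pairs in replicate 1 and 3 in replicate 2. In replicate 1, 254 pairs had 1 side alone and 121 had neither. In replicate 2 the counts were 247 and 106.

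The missing side was mostly the weaker. Sides were ordered by combined strength, and support followed that strength among other narrow peaks as well, so this is partly built in. The stronger side was in both replicates in 376 pairs (68.4%, 64.3 to 72.2) and the weaker side in 139 (25.3%, 21.7 to 29.1). The weaker side was in neither replicate in 287 pairs (52.2%, 47.9 to 56.4). The commonest single arrangement was a stronger side in both replicates beside a weaker side in neither, which made up 152 pairs. Their median strengths were 20.9 and 4.37. In the 129 pairs with both sides in both replicates the medians were 29.0 and 13.5. In 71 pairs neither side was in a replicate, with medians of 5.63 and 4.15.

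These shares varied little with the gap. The share of pairs held as 2 intervals by both replicates was 20.8% (15.02 to 27.6) at 200 to 399 bp and 25.7% (17.8 to 34.9) at 800 to 999 bp. The weaker side was in neither replicate in 49.1% (41.5 to 56.8) and 52.3% (42.5 to 61.9) of those pairs. The intervals overlap in each case.

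The 126 pairs with 2 intervals in both replicates were kept because those intervals overlapped the same combined peaks, which limits how far their positions can differ. Over these pairs the distance between midpoints had a median of 1137 bp in replicate 1 and 1153 bp in replicate 2. The replicates differed in that distance by a median of 59.75 bp (quartiles 31.5 and 118.5), with a largest difference of 760 bp. They were within 100 bp of each other in 87 pairs. Distances and gaps were taken between the strongest replicate interval of each side, so another interval can lie between them. So measured, gaps had medians of 694 bp in replicate 1 and 722.5 bp in replicate 2, against 566 bp in the combined list. The rule holds the combined gap under 1000 bp but sets no limit to the replicate gap. The latter reached 1000 bp or more in 16 pairs in replicate 1 and 19 in replicate 2.

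The stronger side of these pairs was not part of their choice. The same side was stronger in both in 100 of the 126 pairs (79.4%, 71.2 to 86.1). In 96 of them the combined list had that side ahead as well, which follows in part from its source. All 61 pairs whose combined strengths differed at least 2-fold had the same side ahead in both replicates. Of the other 65 pairs, 39 did (60.0%, 47.1 to 72.0). Combined strength draws on the replicates, so this split is not independent of them.

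Close pairs called in one replicate were also looked up in the other lists. Of the 182 replicate 1 pairs, replicate 2 held 127 as 2 intervals (69.8%, 62.5 to 76.4), merged 12, held 1 side of 38 and neither side of 5. Of the 216 replicate 2 pairs, replicate 1 held 125 as 2 intervals (57.9%, 50.98 to 64.5), merged 10, and held 1 side of 75. The combined list had 2 intervals for 158 of the replicate 1 pairs and 180 of the replicate 2 pairs, and it merged 24 and 26 into 1 interval. Of replicate pairs with both sides covered, the combined list thus merged 13.2% of 182 (8.64 to 18.98) and 12.6% of 206 (8.41 to 17.9). Of combined pairs with both sides covered, replicate 1 merged 2 of 175 (1.14%, 0.139 to 4.07) and replicate 2 merged 3 of 197 (1.52%, 0.315 to 4.39).

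As single peaks, the members were found in both replicates about as often as other peaks. In both replicates were 422 of the 929 members (45.4%, 42.2 to 48.7), where the share over all combined peaks was 46.4%. A further 72 (7.75%, 6.11 to 9.66) were in replicate 1 alone, where all combined peaks had 7.39%. In replicate 2 alone were 110 (11.8%, 9.83 to 14.09), below the 14.1% of all combined peaks and the 14.96% of other narrow peaks. The remaining 325 (34.98%, 31.9 to 38.1) were in neither, where the share over all combined peaks was 32.1%. Among the other narrow peaks 45.0% (43.5 to 46.5) were in both and 32.6% in neither. Wide peaks were in both in 80.5% of 200.

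Members had a median combined strength of 8.03 (quartiles 4.90 and 15.6) and other narrow peaks 7.94 (4.96 and 14.5). Members were wider, with a median of 391 bp against 340 bp. Where a replicate peak was matched, its median strength was 7.50 in replicate 1 and 7.34 in replicate 2 for members. For other narrow peaks it was 6.93 and 6.61. The interquartile ranges overlap in each comparison.

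Support followed the rank in the list. With the combined list split into 5 equal parts by q, all 186 members of the strongest part were in both replicates, as were all 735 other narrow peaks. In part 2 it was 87.0% of 193 members (81.5 to 91.4) and 91.3% of 843 others (89.2 to 93.2). In part 3 it was 37.0% (29.6 to 45.0) and 37.7% (34.5 to 41.0). No member of the weakest part, out of 195, was in both replicates, and 89.7% (84.6 to 93.6) were in neither, against 85.7% (83.2 to 88.0) of the others. The intervals of members and other narrow peaks overlap in each of the 5 parts.

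**Figure D4:**
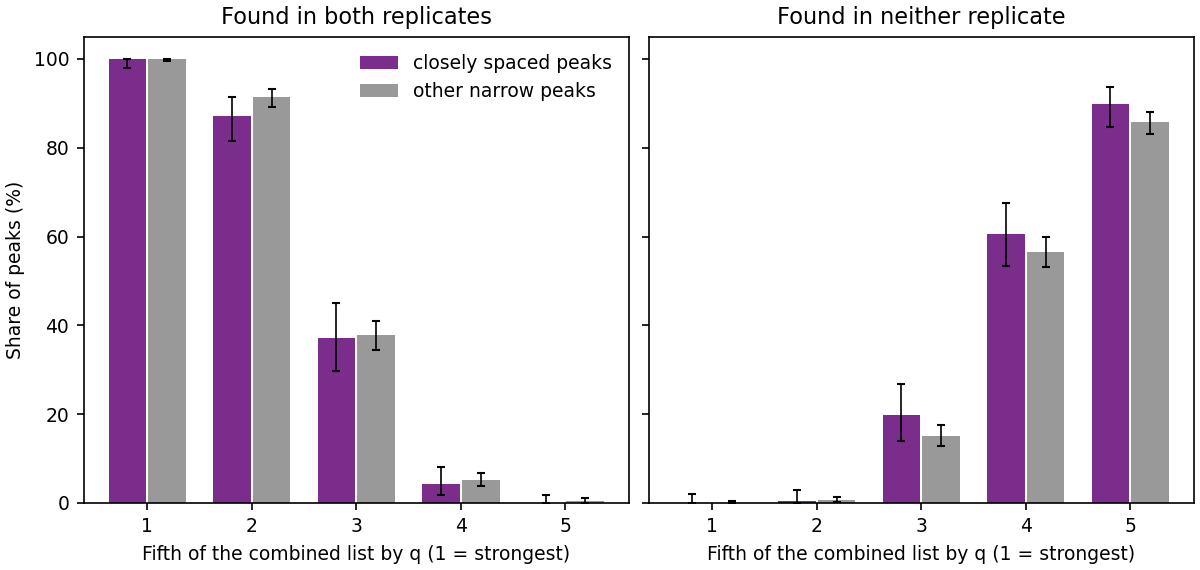
Share of closely spaced peaks (purple) and other narrow peaks (grey) found in both replicates (left) and in neither (right), by part of the combined list from strongest (1) to weakest (5); bars are percentages of peaks and lines are exact 95% intervals. In part 1 every peak of either kind was in both replicates, and in part 5 none of 195 members was.

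The narrowest members had little support. Of 17 members under 100 bp wide, 2 of them a single base, 1 was found in a replicate. Their strengths ran from 3.52 to 5.82. Among the other peaks under 100 bp wide, 2 of 67 were found in a replicate.

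Wide peaks often had a close narrow neighbour, and 70 of the 200 (35.0%, 28.4 to 42.0) stood in a run with a member. The 72 members beside a wide peak had a median strength of 8.65 and a median width of 467.5 bp. The 857 beside narrow peaks alone had 7.99 and 381 bp. In both replicates were 47.2% (35.3 to 59.3) of the first and 45.3% (41.9 to 48.7) of the second.

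Chromosome III held the most members, 245 of the 929 (26.4%), and X the fewest, 85 (9.15%). As a share of each chromosome's own narrow peaks, members made up 22.3% on III (19.8 to 24.8) and 12.7% on X (10.2 to 15.4). Chromosome V had 19.1%, IV 18.3%, II 18.1% and I 16.2%, all with intervals that overlap each other. The interval of III overlaps those of V, IV and II, and the interval of X overlaps that of I (13.8 to 18.8). Density moved with this at the extremes, as III had 80.02 narrow peaks per Mb of its span and X 38.8. Its part in the shares was not tested. V had 38.9 per Mb, close to X, and a share of 19.1% (16.5 to 21.99) that lay above the interval of X.

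The replicate lists ranked III first and X last too. In replicate 1 the share of close peaks was 18.4% on III (15.5 to 21.6) and 7.03% on X (4.64 to 10.1). In replicate 2 it was 16.7% (14.2 to 19.5) and 4.86% (2.91 to 7.58). In both lists II came second, at 12.6% and 13.4%. The interval of X overlaps those of I, II, IV and V in replicate 1, and that of I alone in replicate 2. The interval of III overlaps that of II in both lists, and that of V in replicate 2. With the gap limit at 500 bp in the combined list, III no longer led: IV had 10.6%, II 9.64% and III 9.18%, with X lowest at 5.96%.

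**Figure D5:**
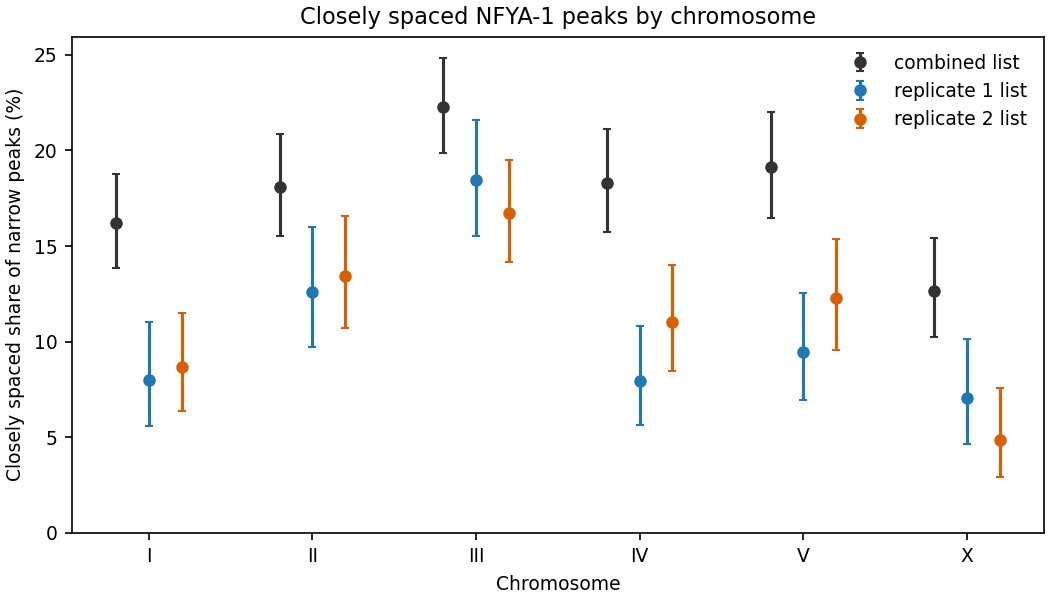
Closely spaced peaks as a share of the narrow peaks of each chromosome (y axis, percent) in the combined list (black), replicate 1 (blue) and replicate 2 (orange); points are shares and lines are exact 95% intervals. III has the highest and X the lowest share in each list, at 22.3% and 12.7% in the combined list.

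Replicate support was highest on III and lowest on X. In both replicates were 57.6% of the members on III (51.1 to 63.8), 50.7% on II, 44.0% on IV, 39.4% on V, 36.8% on I and 29.4% on X (20.02 to 40.3). The intervals of I, IV and V overlap that of X. Other narrow peaks ranged from 40.3% on I and 42.0% on X to 49.2% on III. Pairs held as 2 intervals by both replicates made up 35.7% of 140 pairs on III (27.8 to 44.2) and 13.2% of 53 on X (5.48 to 25.3). Of the 126 such pairs, 50 lay on III, 24 on II and 7 on X.

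Along the chromosomes the members were spread widely. With each span from first to last peak cut into 3 equal parts, the member share over all chromosomes was 17.97% in the left part, 18.9% in the middle and 17.5% in the right, with overlapping intervals. II had its lowest share in its left part, at 12.5% (8.47 to 17.6), against 20.8% (16.5 to 25.8) in its middle. On X the 3 parts had 13.8%, 13.95% and 10.4%.

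Members per full 1 Mb bin ranged from 0, in 2 bins, to 34, with a median of 8 over 97 bins. III from 4000001 to 5000000 led with 34 members among 109 narrow peaks (31.2%, 22.7 to 40.8), and the replicate lists held 12 and 14 there by the same rule. Next was III from 12000001 to 13000000, with 30 members among 104 narrow peaks in the combined list, 30 in replicate 1 and 27 in replicate 2. The first stretch thus had fewer close peaks in the replicate lists and the second a like number. The bin with most members off III was II from 6000001 to 7000000, with 22 members.

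The bins densest in peaks had a larger share of members than the sparsest. The gap limit is fixed, so the rule itself ties this share to local density, and how far it does was not tested. In the 25 bins with the fewest narrow peaks, 12 to 39 per bin, members made up 13.7% (11.4 to 16.3). In the 24 with the most, 59 to 109 per bin, they made up 21.04% (19.2 to 22.97). The groups between, of 24 bins each, were alike, at 17.4% (15.2 to 19.9) and 17.3% (15.3 to 19.5). For the member share against narrow peaks per bin, Spearman's rho was 0.319 over the 97 bins. The number of members and of narrow peaks per bin had a Pearson's r of 0.832 and a Spearman's rho of 0.754. Members are counted in both of these numbers.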

How the data were processed

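The authors deposited 3 peak lists, 1 per ChIP replicate and 1 combined. PeakSeq called the peaks on WormBase WS180, per the file headers and source field. The authors' q-value, a corrected p-value, is the only value per peak and was turned into −log10 q. The aligner, thresholds, use of the inputs and the making of the combined list are details not given in the sources at hand. No reads were counted, so depth is unknown.

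A gap is the next start minus the previous end minus 1. Overlap needed 1 bp, and a peak that overlapped several replicate intervals took the strongest. Regions were named by rule: the 5 runs with most members, the 5 pairs of 2 members with the strongest weaker side and the 5 strongest members. The runs found whole in both replicates were added after their values were seen. Members, lists and rules were chosen with earlier results of these data known. No significance test was run, because the rule used the combined positions and the replicates are their source. Alternatives covered the gap limit, width limit, overlap rule, list and rank. The planned CCAAT count and gene names were not run, since the gene table at hand is for another build. Gap and overlap functions were tested on simulated data. Software was SciPy 1.17.1, pandas 2.3.3 and matplotlib 3.10.9 under Python 3.11.15.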

Additional observations from a re-analysis of the deposited data

How the results depend on the processing

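Of 39 alternative values for 8 results, 13 stayed within 1.5 times the count or within the reported interval. The number of members was 430 with gaps under 500 bp and 1657 with gaps under 2000 bp. It was 267 in the stronger 50% of the combined list by q, 318 in the replicate 1 list and 388 in the replicate 2 list. The number of runs was 217, 732, 144, 163 and 193 in the same order. Fewer peaks enter the last 3. Members in both replicates made up 41.6% when overlap had to be 50% reciprocal. Their share was 88.0% when the list was cut to its stronger 50%. With 1 replicate left out, 53.2 to 57.3% of members were in the remaining list, a looser rule that cannot give a lower share. Pairs held as 2 intervals by both replicates were 18.2% with a 50% reciprocal overlap and 19.5% with midpoints within 200 bp. With 1 replicate left out, the remaining list held 31.5 to 35.3% of pairs as 2 intervals, again by a looser rule. The member share on III was 9.18% with gaps under 500 bp and 17.3% in the stronger 50% of the list. It was 18.4% in replicate 1 and 16.7% in replicate 2. On X it was 5.96%, 3.12%, 7.03% and 4.86%. Leaving out chromosome I, added after seeing the data, kept the 3 values it was run for within their intervals. No paired analysis was possible because the results come from no test between groups. ChIP and input libraries share replicate numbers, but input values are not used here. A peak missing from a list cannot be called absent at unknown depth.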
